A study of Danio rerio with 12 samples.

Results

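The distal part of zebrafish chromosome 3 was examined as one block of neighbouring genes. Its members are the genes that the deposited tables place on chromosome 3 with a start at or above base 44000000, without ern1 and the embryonic globin genes whose names start with hbae or hbbe. There were 337 such genes among 32349 in all, and 283 of them, among 26508, had enough counts to be tested. The last gene start on the chromosome was at base 62521041. The block was chosen from earlier results on the difference between the genotypes in these same libraries. Genotype values, and the calls and p-values that go with them, are therefore given below as a description and not as a test of the block. The sources used here name no genome build, and coordinates are those of the deposited tables.

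The libraries came from whole zebrafish (Danio rerio) larvae at 3 days post fertilization, each from a pool of 25 larvae. Control larvae were compared with larvae of a transgenic line, Tg(ifih1_mut), here called ifih1mut, and larvae of both kinds were also given poly I:C, a man-made mimic of viral double-stranded RNA. The 4 groups of 3 libraries were control (A81, A82, A83), ifih1mut (A75, A76, A77), control with poly I:C (A78, A79, A80) and ifih1mut with poly I:C (A72, A73, A74). Not given in the sources used here are the promoter and the insertion site of the transgene, and the amount, the way and the length of poly I:C exposure. Separate clutches are not stated for the pools of a group, and p-values therefore cover the spread between pools alone.

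Genes that lie close together on a chromosome are usually inherited together, and variants in a shared stretch can act on several neighbouring genes at once. Fish lines that are bred separately can differ along such a stretch. In RNA-seq of whole larvae each value is a sum over all tissues, so that fewer cells of a type and less RNA per cell cannot be told apart. Sequence variants were not measured here, and whether the genotypes carry different variants in the block was not tested. Of the marker genes of the block, nprl3 encodes a subunit of GATOR1, a complex that restrains the nutrient-sensing kinase complex mTORC1 when amino acids are scarce. The other, snrnp25, encodes a protein of the U11/U12 particle of the minor spliceosome, which removes a rare class of introns.

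Library totals ranged from 31876869 to 100839015 counts. The ifih1 gene on chromosome 9 was between 11.1 and 33.3 CPM in the 6 ifih1mut libraries. In the 6 control libraries it was between 1.92 and 2.73 CPM, so the libraries labelled Tg(ifih1_mut) were the higher ones. CPM is a gene's count divided by the normalised total of the library and put on a common scale. With group means removed, libraries that hold the same place in their groups' numbers moved together (r from 0.29 to 0.80 in 18 pairs over 22829 genes, against at most 0.18 in 36 other pairs). These library sets, each with 1 library of every group, are A81, A75, A78 and A72 (set 1), A82, A76, A79 and A73 (set 2) and A83, A77, A80 and A74 (set 3). They are known from the values and not from the labels. A ratio within a set compares ifih1mut with control inside it, which gives 3 ratios without and 3 with poly I:C.

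Among the markers, snrnp25 (base 46377305 to 46379900, minus strand) was lower in ifih1mut. It stood at 9.26, 11.1 and 9.55 CPM in control and at 6.62, 7.75 and 5.46 CPM in ifih1mut libraries. With poly I:C it stood at 8.22, 9.39 and 9.88 CPM in control and at 6.51, 7.43 and 5.66 CPM in ifih1mut libraries. The genotypes did not overlap in either comparison, and every within-set ratio was below 1. The log2 fold change was -0.59 (SE 0.16) without and -0.49 (SE 0.16) with poly I:C, which as an average over both is 0.69 of the control level.

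The marker nprl3 (base 55045346 to 55079742, minus strand) was higher in ifih1mut, by less. It stood at 11.5, 15.8 and 14.7 CPM in control and at 15.5, 17.2 and 16.1 CPM in ifih1mut libraries, where the control library A82 lay inside the ifih1mut range. With poly I:C it stood at 11.8, 14.2 and 12.9 CPM in control and at 15.7, 16.6 and 16.5 CPM in ifih1mut libraries, without overlap. All 6 within-set ratios were above 1. The log2 fold change was 0.22 (SE 0.13) without and 0.33 (SE 0.13) with poly I:C, and the first was 0.09 without A81.

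The partners of both proteins lie on other chromosomes. Of 12 listed symbols for the GATOR and KICSTOR complexes, which pass amino acid status to mTORC1, 9 genes were tested. Neither edgeR nor DESeq2 called any of them in a contrast (0 calls), and nprl3 was the 1 gene with an unadjusted p under 0.05, with poly I:C and on average. Over all genes tested the unadjusted share was 3.74% with poly I:C and 2.74% on average. Apart from nprl3, the log2 fold changes averaged over both comparisons ran from -0.10 for nprl2, its partner in GATOR1, to 0.16 for kptn of KICSTOR. Of 9 symbols for U11/U12 proteins, 7 genes were tested. By edgeR 0 were called, and snrnp25 had an unadjusted p under 0.05 in the genotype contrasts. DESeq2 called it (1 gene) on the average of both (0.512% of all its genes), as did edgeR with a block for library sets (0.275% of all genes tested). Apart from snrnp25 they ran from -0.22 (SE 0.29) for snrnp48 to 0.03 for zmat5. Within these lists the markers were the only genes with 1 sign in all 6 within-set ratios. Both markers belong to the block that was chosen from these comparisons, so nothing is read from their signs, p-values or calls.

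In both genotype comparisons, 5 genes of the block separated the genotypes without overlap and in the same direction, among them snrnp25. Over all genes tested this share was 0.26%, and over the rest of chromosome 3 it was 4 of 871 genes. Lower in ifih1mut was ube2ia, which encodes the SUMO-conjugating enzyme Ubc9. It stood at 83.5, 72.5 and 67.4 CPM in control and at 65.4, 65.1 and 61.2 CPM in ifih1mut, and with poly I:C at 74.6, 74.97 and 71.4 against 66.3, 63.3 and 58.7 CPM. Its log2 fold changes were -0.22 and -0.23 (SE 0.09 each), a small difference in an abundant transcript. The clone-named gene si:ch211-165g14.1 was lower as well (log2 -0.19 and -0.24). The count of 5 rose to 16 without A82 (0.65% of all genes), 11 without A80 (0.446%), 10 without A75 (0.491%) and 8 without A76 (0.463%). It was 5 to 7 when any other 1 library was left out, with shares of all genes from 0.37% without A74 to 0.847% without A77. Without A83, where the share was 0.833%, the count was 7. A group with a library fewer meets this rule more easily, and the share over all genes rose in every such run. Why the count of the block moved more with some libraries than with others was not tested.

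Higher in ifih1mut was luc7l3, a splicing factor of the LUC7 family that acts with U1. It stood at 73.4, 73.1 and 75.1 CPM in control and at 90.0, 80.3 and 75.4 CPM in ifih1mut, and with poly I:C at 71.5, 71.4 and 74.6 against 84.7, 77.1 and 78.5 CPM. The lowest ifih1mut library, A77, lay just above the highest control library (log2 fold change 0.15 and 0.14, SE 0.08 each). The remaining gene is an assembled gene without a symbol that the deposited annotation describes as similar to the ubiquitin ligase TRIM11 with a SPRY domain, and it is called the TRIM11-like gene here. It lies at base 58863343 to 58877044 and stood at 6.64, 10.7 and 5.48 CPM in control and at 11.3, 12.2 and 13.1 CPM in ifih1mut. With poly I:C it stood at 5.97, 6.33 and 5.51 CPM in control and at 15.8, 13.6 and 15.7 CPM in ifih1mut. The log2 fold change was 0.68 (SE 0.21) without and 1.34 (SE 0.21) with poly I:C, and the first became 1.01 without A82, the control library nearest to ifih1mut.

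A further pair of genes, chosen after their values were seen, showed the same control library standing apart. The gene snu13a encodes a protein of the U4/U6.U5 particle of the major spliceosome. It stood at 4.58, 18.1 and 4.32 CPM in control and at 8.92, 21.9 and 14.9 CPM in ifih1mut libraries. With poly I:C it stood at 4.82, 5.04 and 5.39 CPM in control and at 12.2, 18.7 and 20.2 CPM in ifih1mut libraries. A82 thus lay among the ifih1mut libraries while the other control libraries, stimulated or not, lay below all of them. The log2 fold change was 0.76 (SE 0.50) without poly I:C, 1.78 when A82 was left out, and 1.74 (SE 0.52) with poly I:C.

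The clone-named gene si:dkey-188h10.3 lies just beyond ern1, the unfolded-protein sensor that was left out of the block. It stood at 0.392, 3.92 and 0.567 CPM in control and at 2.33, 4.83 and 2.63 CPM in ifih1mut, and with poly I:C at 0.247, 2.16 and 0.693 against 2.97, 2.99 and 3.63 CPM. The control libraries of set 2, A82 and A79, were the high ones in both comparisons. Without poly I:C the ifih1mut library of set 2, A76, was also the highest of its group, here and in snu13a. Whether these values reflect a level shared by set 2 was not tested. As log2 fold changes these were 1.01 (SE 0.82) and 1.63 (SE 0.86), and they became 2.80 without A82 and 2.76 without A79. In ern1 itself A82 was likewise the control library nearest to ifih1mut (28.3 CPM, against 36.9 and 41.1 in A81 and A83 and 21.3 to 25.1 in ifih1mut). Other genes went otherwise. Among snrnp25, nprl3, ube2ia and luc7l3, A82 was the nearest unstimulated control library in nprl3 alone. It was the farthest in snrnp25 and, by little, in luc7l3, and A83 was the nearest in ube2ia.

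AL935210.1, also chosen after its values were seen, is a gene without a description that lies inside the embryonic globin cluster at base 55131289 to 55132052. It stood at 282, 139 and 198 CPM in control and at 216, 107 and 74.7 CPM in ifih1mut, and with poly I:C at 316, 174 and 228 against 179, 91.8 and 109 CPM. The groups overlapped in both comparisons, but the ifih1mut library was the lower in each of the 6 within-set pairs (log2 fold change -0.64, SE 0.40, and -0.92, SE 0.41). A block for library sets in the edgeR fit called it with poly I:C and on the average, where the fit without a block did not. Of the globin genes left out, 3 were higher in all 6 within-set ratios (hbae3, hbae1.3 and hbbe1.1) and 1 copy of hbae1 was lower in all of them. The SE of hbbe1.1 was wide, with log2 0.91 (SE 0.98) without and 1.24 (SE 0.98) with poly I:C. The gene hbbe1.2 was higher in only 1 of the 6 ratios, at log2 -0.73 (SE 0.46) and -1.41 (SE 0.47). The other copy of hbae1 was higher in 4. Of 19 symbols for erythroid genes outside the globin clusters 18 were tested. By edgeR and by DESeq2 0 were called in any contrast, and 0 had an unadjusted p under 0.05. Over all genes tested the unadjusted share ran from 0.509% to 3.74% by contrast, and the called share was at most 0.69% by edgeR and 0.971% by DESeq2. With 18 genes a count of 0 is near these shares, and nothing is read from it. The median log2 fold change of the 18 was -0.01 without and -0.03 with poly I:C. Among the adult globin genes in the block, 1 of 5 was tested, hbaa1, at log2 0.39 and -0.21.

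**Figure D1:**
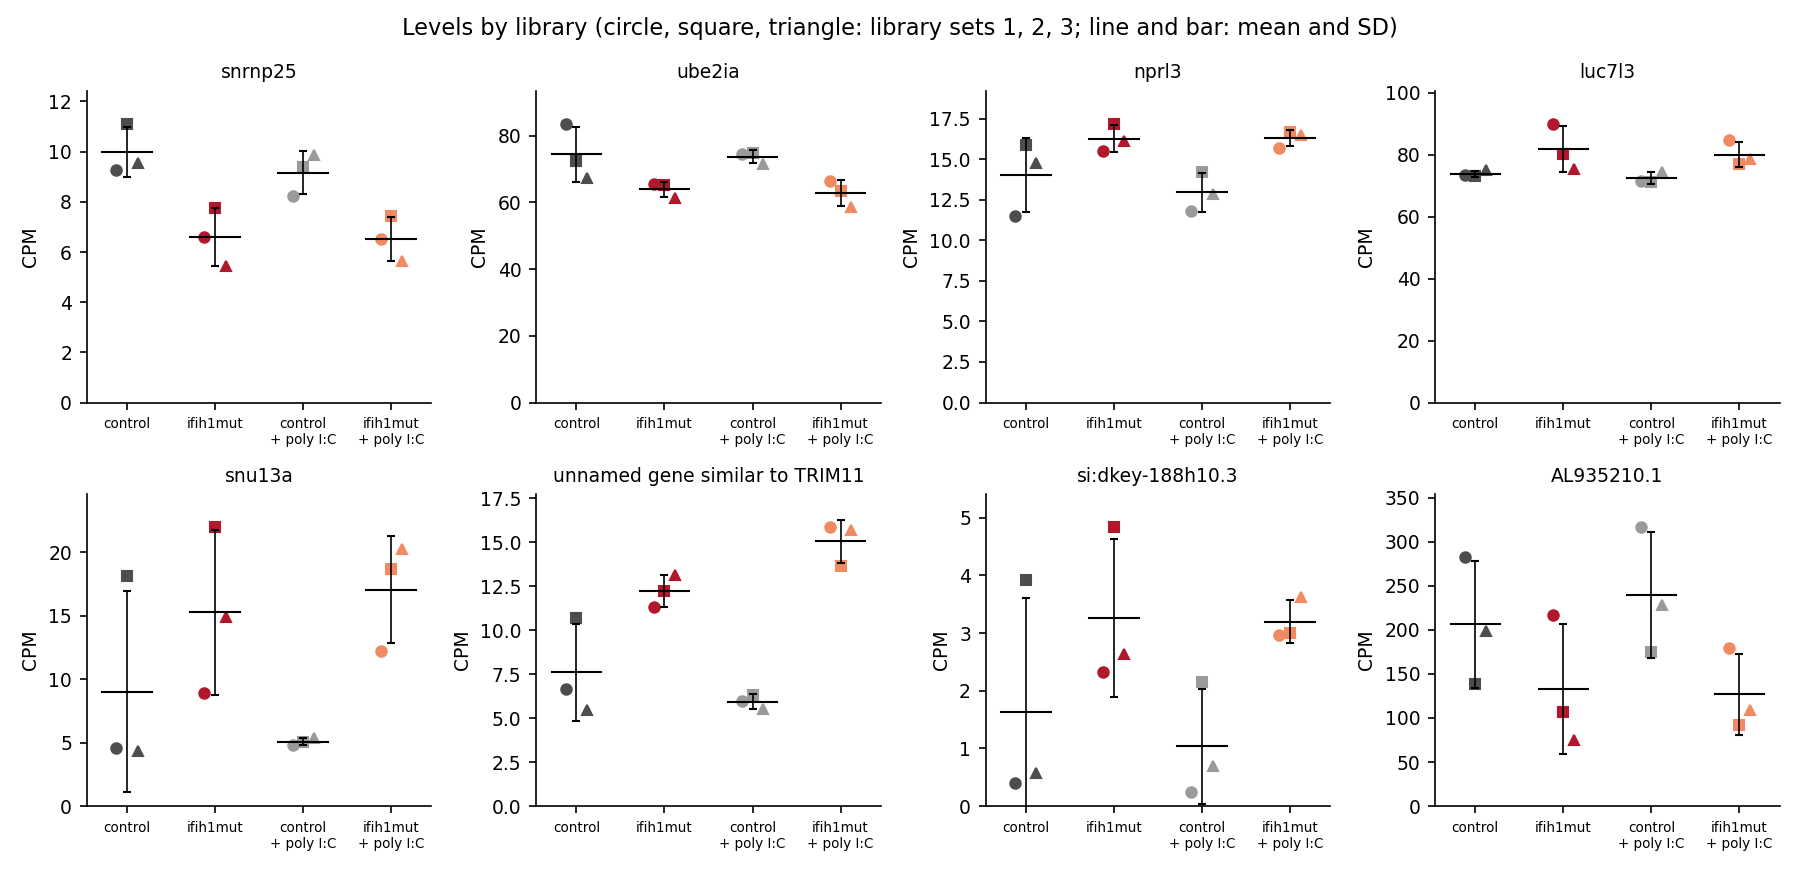
Expression of 8 genes of the block in each of the 12 libraries (vertical axis, CPM, starting at 0), by group. Circles, squares and triangles are library sets 1, 2 and 3, and the line and bar are the mean and SD of 3 libraries. In snrnp25 and ube2ia all ifih1mut libraries lie below all control libraries of the same treatment. In snu13a and si:dkey-188h10.3 the unstimulated control library of set 2, at 18.1 and 3.92 CPM, lies among the ifih1mut libraries.

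Counted over the block, the genotypes did not overlap in 25 of 283 genes without poly I:C (3.46% of all genes tested) and in 46 with it (7.36% of all genes tested). On the rest of chromosome 3 the same counts were 41 and 85 of 871. In 41 genes of the block, or 14.5%, all 6 within-set ratios had the same sign, 27 higher and 14 lower in ifih1mut. Over all genes tested the share was 4.08% (2.26% higher and 1.83% lower), and over the rest of chromosome 3 it was 48 of 871, or 5.51%. The block was chosen from these comparisons, so nothing is read from these shares.

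Most of the 41 differences were small. The absolute log2 fold change averaged over both comparisons ran from 0.11 to 1.32 with a median of 0.30, and 30 of the 41 were under 0.5. By function these genes were mixed. They include the Hsp40 chaperone dnajb1a (log2 0.12), the Wnt-inactivating enzyme notum1a (0.25) and aanat2, which makes melatonin precursor in the pineal gland (0.28). Higher as well were il21r.1, a receptor of interleukin-21 (0.36), and sco1, a copper chaperone of cytochrome c oxidase (0.60).

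Among the 14 lower genes were mgrn1b, a ubiquitin ligase (-0.14), tecra, an enzyme of very-long-chain fatty acid synthesis (-0.21), and kank2, an ankyrin-repeat protein of cell adhesions (-0.34). These genes were picked for known function and not for size. Some of these values moved with single libraries. With 1 library left out, mgrn1b ran from -0.24 to -0.02, tecra from -0.41 to -0.06, notum1a from 0.11 to 0.32 and dnajb1a from 0.07 to 0.15, without a change of sign. Of the 41, 24 lay on the plus and 17 on the minus strand, and 7 overlapped another listed gene, where reads cannot be divided with certainty because the strand setting of the counting is not given. The gene model of sec14l1 (log2 0.32), a lipid-binding protein, is one of the overlapping ones.

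By edgeR, 0 of 283 genes were called without poly I:C (0.00377% of all genes tested, which is ifih1 alone), 8 had an unadjusted p under 0.05 (0.509% of all genes tested), and DESeq2 also called 0 (0.0062% of all its genes). With poly I:C 3 genes were called, lgals3bpa, lgals3bpb and the TRIM11-like gene (0.6% of all genes tested), and averaged over both comparisons 1 was called, the TRIM11-like gene (0.121% of all genes tested). DESeq2 called 7 with poly I:C (0.931% of all its genes) and 5 on the average (0.512% of all its genes). These counts come from the contrasts that chose the block. The authors' deposited table of the comparison without poly I:C has 5 calls in all (0.0157% of its genes) and 0 in the block. With poly I:C the authors' deposited table has 261 calls (0.834% of its genes), of which 6 lie in the block, namely the 3 lgals3bp copies, the TRIM11-like gene, snu13a and rnf213a.

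**Figure D2:**
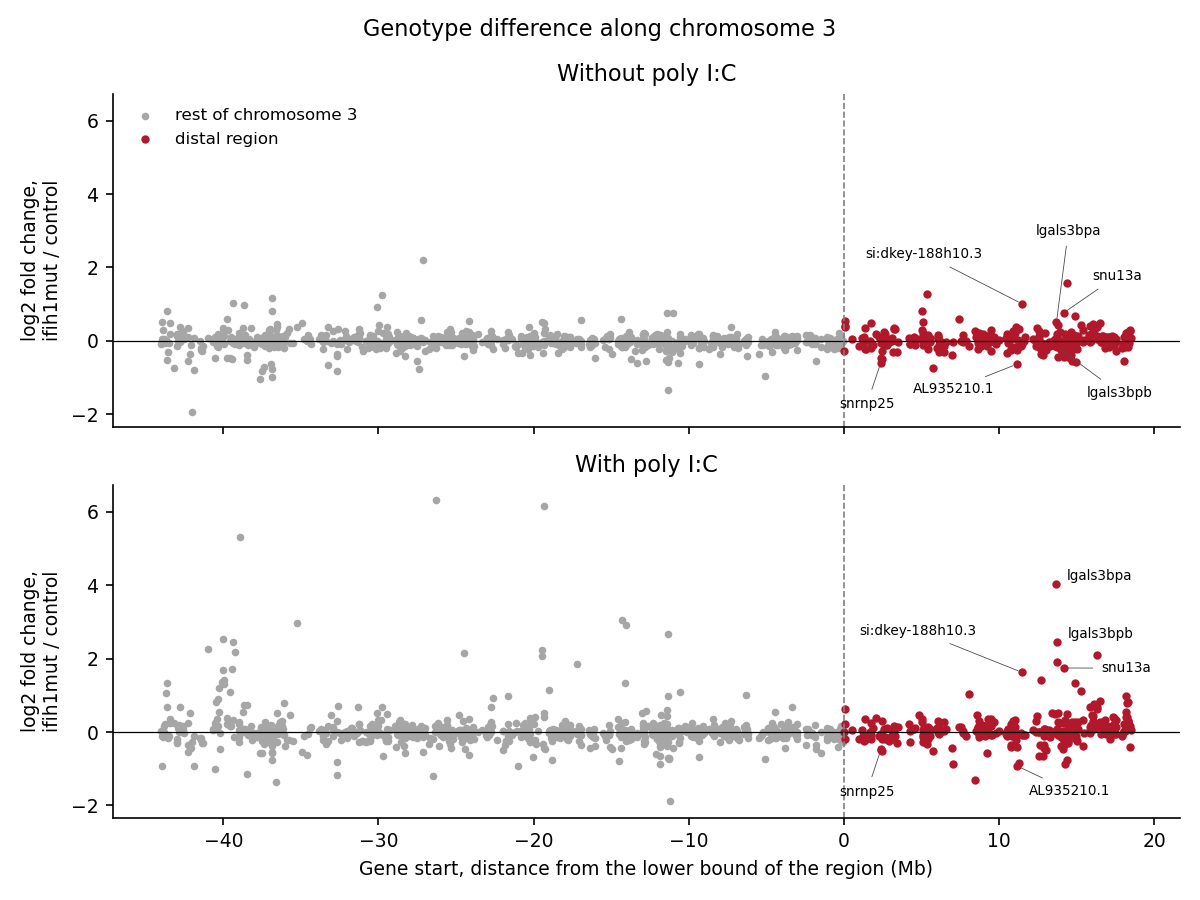
Log2 fold change of ifih1mut against control (vertical axis) for each tested gene of chromosome 3 by the distance of its start from the lower bound of the block (horizontal axis, Mb), without (top) and with (bottom) poly I:C. Red points are the 283 genes of the block and grey points the 871 other genes. Most red points stay near 0, and the highest, lgals3bpa at 4.04, is seen with poly I:C.

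Along the coordinate, the median size of the genotype difference was larger in the block than over the rest of chromosome 3. The median absolute log2 fold change averaged over both comparisons was 0.11 in the block, 0.07 over that rest and 0.08 over all genes tested. This size was not particular to the block. It was also 0.11 on chromosome 4 and over genes placed on alternate contigs. These parts differ in level. A mean log2 CPM of 0 or more was reached by 248 of 283 genes in the block and 850 of 1342 on chromosome 4. On alternate contigs it was reached by 2886 of 3356. The window from 2 to 4 Mb of chromosome 3 had 0.23, above every 2-Mb window of the block (at most 0.17). The genotype comparisons without and with poly I:C share no library, and over the 283 genes their log2 fold changes had a Spearman rho of 0.41 (Pearson r 0.36). Over the 871 other genes of the chromosome rho was 0.18 (r 0.13), and over 21429 genes of the other chromosomes 0.08. These are correlations across genes, which share the libraries of each comparison and are not independent. The sign was the same in both comparisons in 183 of the 283 genes (64.7%) and in 496 of the 871 (56.9%).

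Within the library sets, rho over the block was 0.29, 0.20 and 0.26 in sets 1, 2 and 3, and 0.20, 0.05 and 0.04 over the rest of the chromosome. When 1 library was left out, Pearson r moved with the library and with the genes that then entered the fit. It was 0.20 without A74, 0.08 without A83 and -0.11 without A76, where BX769173.1, which had too few counts to be tested in the full set, entered. Without that gene it was 0.18. The same gene entered every run but those without A72 or A74. Leaving it out gave 0.11 in the run without A83, and 0.36 in place of 0.54 in the run without A81. Over the 283 genes of the full fit alone, Pearson r ran from 0.20 without A83 to 0.42 without A80, and it was 0.26 without A76. The lowest rho when 1 library was left out was 0.27, without A74.

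**Figure D3:**
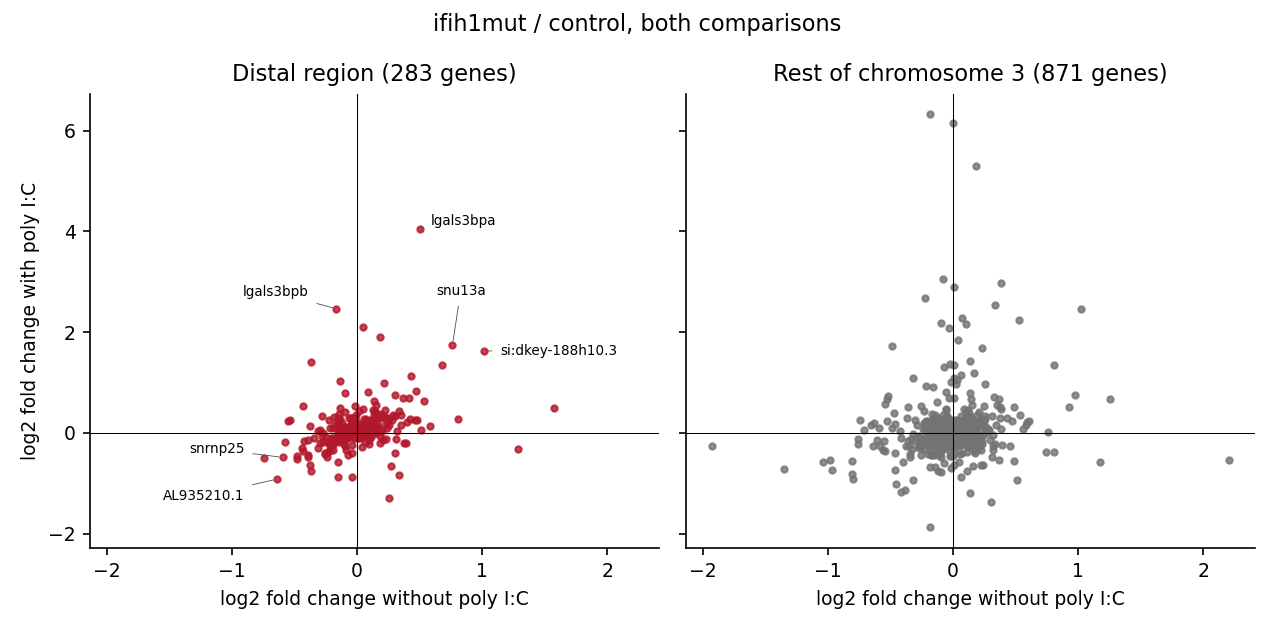
Log2 fold change of ifih1mut against control without poly I:C (horizontal axis) and with poly I:C (vertical axis), 1 point per gene, for the block (left, 283 genes) and the rest of chromosome 3 (right, 871 genes). Spearman's rho was 0.41 over the points of the block, where 183 of 283 had the same sign in both comparisons, and 0.18 over those of the rest. The genes lgals3bpa and lgals3bpb are set apart by the comparison with poly I:C.

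The likeness between the comparisons was uneven inside the block. From 44 to 50 Mb rho was 0.54 over 63 genes, and 11 of them had 1 sign in all 6 within-set ratios. From 50 to 54 Mb rho was 0.18 over 50 genes, and 2 had 1 sign throughout. From 54 to 60 Mb, where nprl3, snu13a and the TRIM11-like gene lie, rho was 0.52 over 102 genes and 18 had 1 sign throughout. From 60 Mb to the end rho was 0.18 over 68 genes, and the 10 genes with 1 sign were all higher in ifih1mut. The 10 Mb before the block, from 34 to 44 Mb, had a rho of 0.17 over 184 genes and 12 such genes. By these values the block was not uniform. Both from 50 to 54 Mb and from 60 Mb to the end, rho was like that of the rest of the chromosome (0.18). The share with 1 sign throughout was 4.0% in the former stretch and 14.7% in the latter. These stretches are of unequal width, their values come from the comparisons that chose the block, and they carry no test.

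In windows of 2 Mb with at least 10 genes whose mean log2 CPM was 0 or more, the window from 54 to 56 Mb had a rho of 0.77 over 24 genes, above each of the 636 windows outside the block. That from 58 to 60 Mb had 0.71 over 36 genes. The other 8 windows of the block ran from 0.18 to 0.57, and those on the rest of chromosome 3 from -0.18 to 0.59. By Pearson r, 0.95, the window from 54 to 56 Mb ranked 3 over the genome, below windows on chromosomes 9 (0.98) and 18 (0.96). The share of genes with 1 sign in all 6 ratios was 25.9% from 54 to 56 Mb and 23.5% from 44 to 46 Mb. From 50 to 52 Mb it was 0%, and in a window on the rest of the chromosome at most 14.3%. Over the windows of the genome the 25.9% ranked 3 and the 23.5% ranked 4. These windows were picked from the values and carry no test.

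**Figure D4:**
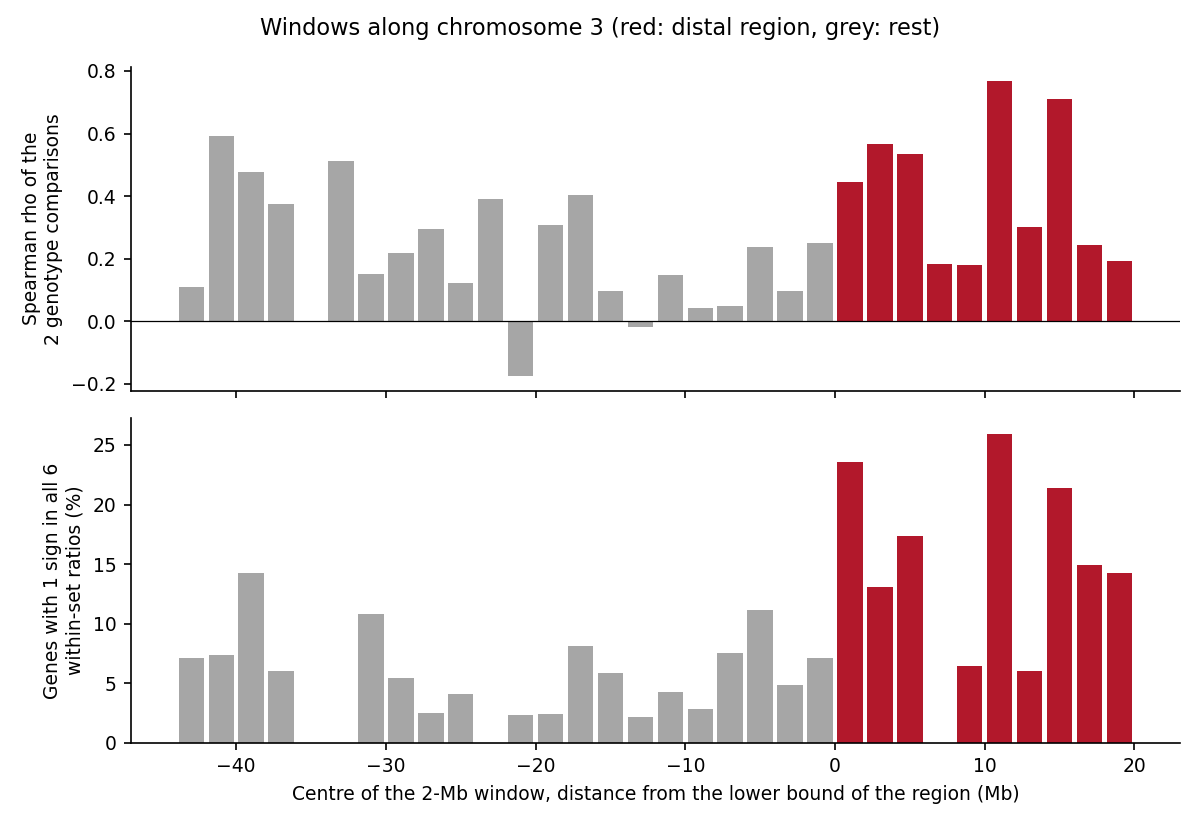
Windows of 2 Mb along chromosome 3 by the distance of the window's centre from the lower bound of the block (horizontal axis, Mb). The upper panel gives Spearman's rho between the genotype comparisons and the lower panel the share of genes with 1 sign in all 6 within-set ratios (percent). The tallest red bars, of the block, are at 0.77 and 25.9%, and those in its middle are no taller than many grey bars of the rest. In the upper panel this holds for the last red bars as well.

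Neighbouring genes did not move as one. Of 282 pairs of adjacent tested genes in the block 157 (55.7%) had the same sign of the averaged difference, and of 870 pairs on the rest of the chromosome 456 (52.4%). At the lower bound, the last tested genes outside were ubfd1 (log2 -0.02 without and -0.01 with poly I:C) and BX571715.1 (-0.00 and -0.28). The first inside were a pair of gene models both named il4r.1, a receptor of interleukin-4. The first, at base 44002300, stood at log2 -0.27 and -0.00. The second, at base 44048907, stood at 0.54 and 0.63 (SE 0.22 each), with 6.40, 5.66 and 6.30 CPM in control against 8.23, 8.66 and 9.71 CPM in ifih1mut. After poly I:C the groups overlapped, at 9.52, 5.88 and 9.34 CPM in control and 8.95, 14.3 and 15.04 CPM in ifih1mut, and the ratio within set 1 was below 1. Copies of il4r.1 may share reads, so the division between them is uncertain.

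The response to poly I:C within a genotype is a contrast that was not used to choose the block. Its libraries, stimulated or not, are however all shared with the genotype comparisons that were used. Of the genes named below, lgals3bpa and lgals3bpb were also called in the genotype comparison with poly I:C. The p-values and shares of this response are therefore not independent of that choice and are given as a description. The difference between the responses of the genotypes equals the difference of the genotype comparisons that chose the block. It and its calls are a description too. In control larvae edgeR called 0 of 283 genes (0.0% of all genes tested). Unadjusted, 1 gene of the block, BX470259.3, passed 0.05 (1.38% of all genes tested), and DESeq2 called 0 (0.0% of all its genes). In ifih1mut larvae 4 genes of the block rose and none fell by edgeR, a share that rose of 1.41% in the block against 0.683% of all genes tested. Unadjusted, 14 genes of the block had a p under 0.05, or 4.95% against 3.64% of all genes tested. DESeq2 called 5 (0.971% of all its genes).

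The genes that rose include lgals3bpa and lgals3bpb, neighbours starting at bases 57699246 and 57741933 and named for secreted glycoproteins that bind galectin-3. The gene lgals3bpb stood at 11.1, 11.5 and 6.31 CPM in ifih1mut and at 60.7, 39.1 and 84.7 CPM after poly I:C, without overlap. Its rise was 6.38-fold (log2 2.67, SE 0.30, edgeR adjusted p = 0.0011). In control larvae it stood between 8.69 and 12.7 CPM in all 6 libraries, with and without poly I:C, a log2 change of 0.05 (SE 0.28). These effects differed by log2 2.63 (SE 0.40). It was the 1 gene of the block that edgeR called for this difference (0.155% of all genes tested), where 8 genes had an unadjusted p under 0.05 (2.04% of all genes tested) and DESeq2 called 2 (0.454% of all its genes). That call was lost when any library other than A73 or A74 was left out. Nothing is read from these counts.

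The gene lgals3bpa stood at 1.24, 1.38 and 0.382 CPM in ifih1mut and at 4.89, 7.90 and 22.9 CPM after poly I:C. It rose by log2 3.58 (SE 0.63, edgeR adjusted p = 0.026), and the call was lost without A74 (log2 2.69), A75, A76, A77 or A79. In control larvae it stayed between 0.441 and 0.956 CPM in all 6 libraries. The other copy, between them, listed as LGALS3BP (1 of many), went from 1.90, 1.51 and 0.749 to 2.86, 4.52 and 7.77 CPM (log2 1.87, SE 0.42, edgeR adjusted p = 0.106) and did not pass by edgeR, while DESeq2 called it (adjusted p = 0.0014). The copies may share reads.

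The gene rnf213a encodes a very large ubiquitin ligase with an ATPase module. It stood at 16.8, 15.8 and 19.3 CPM in ifih1mut and at 38.3, 52.5 and 122 CPM after poly I:C, and it rose 4.10-fold (log2 2.04, SE 0.36, edgeR adjusted p = 0.026). The call was lost without A75, A76 or A77, and the rise was log2 1.39 without A74. The clone-named gene zgc:165582 went from 0.690, 0.799 and 0.459 to 1.64, 1.88 and 3.32 CPM, a 3.51-fold rise (log2 1.81, SE 0.34, edgeR adjusted p = 0.040). That call was lost when any 1 library other than A72 or A83 was left out. In control larvae the log2 changes were 0.25 (SE 0.35) and 0.64 (SE 0.34). For lgals3bpa the difference between the responses of the genotypes was log2 3.54 (SE 0.88). In each of these 4 genes the highest stimulated ifih1mut library was A74.

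**Figure D5:**
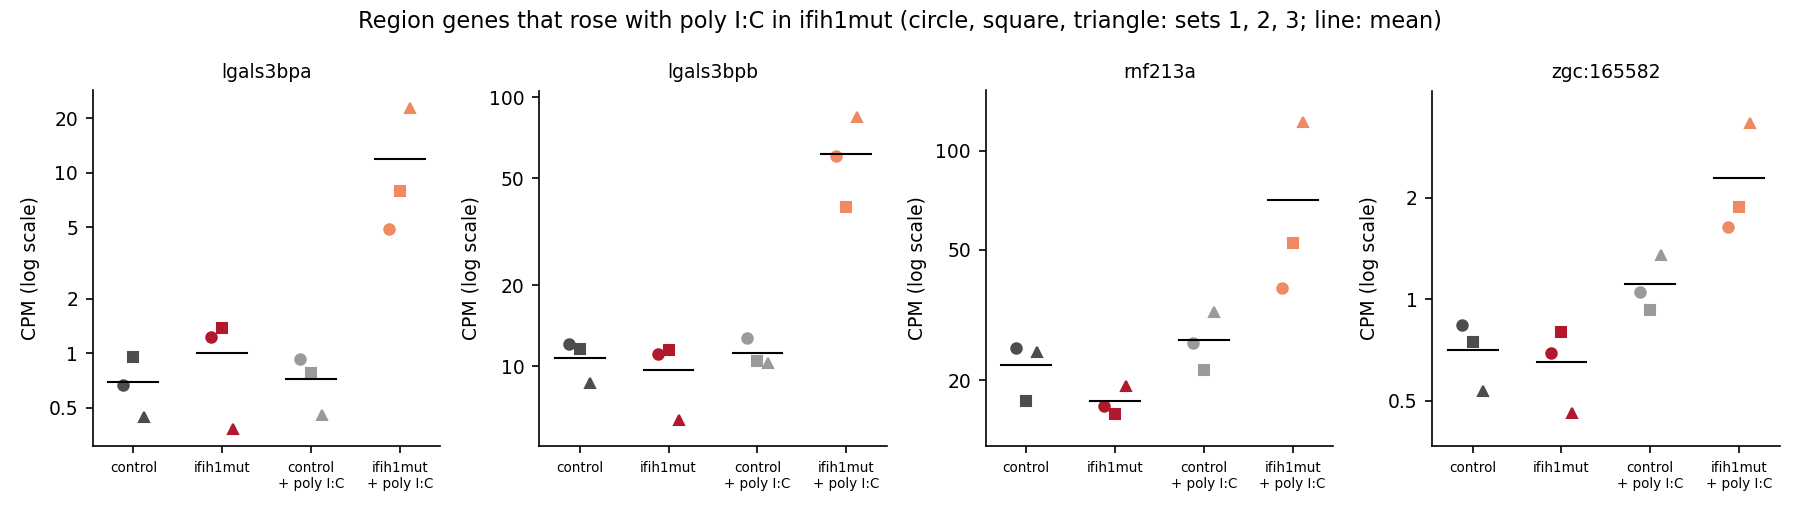
Expression of the 4 genes of the block that rose with poly I:C in ifih1mut larvae (vertical axis, CPM on a log scale) in each of the 12 libraries, by group. Circles, squares and triangles are library sets 1, 2 and 3, and the line is the mean of 3 libraries. The stimulated ifih1mut libraries lie above all others in each panel, and the set 3 library is the highest of them, for example 22.9 CPM in lgals3bpa.

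The genes snrnp25, nprl3 and ube2ia did not respond to poly I:C detectably. In snrnp25 the log2 change was -0.12 in control and -0.02 in ifih1mut larvae (SE 0.16 each), in nprl3 -0.11 and 0.00 (SE 0.13 each), and in ube2ia -0.02 and -0.03 (SE 0.09 each). For the TRIM11-like gene the changes had opposite signs, -0.36 and 0.30 (SE 0.21 and 0.20), with a difference of 0.66 (SE 0.29). Its genotype difference was log2 0.68 without and 1.34 with poly I:C, and the former was 1.01 when A82 was left out. The edgeR fit did not call this change, which comes from the comparisons that chose the block. Over the block the median log2 change with poly I:C was 0.00 in both genotypes. These intervals leave room for changes of the size of the genotype differences in luc7l3 or nprl3.

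The 54 members that could not be tested held between 2 and 121 counts over all 12 libraries, with a median of 23. Of the 283 tested members 260 were listed as protein-coding, 17 were assembled genes without a name and 4 were lincRNAs. Their level per kilobase of gene model ran from 0.0583 CPM to 13543 CPM for pvalb1, a muscle parvalbumin, with a median of 3.33 CPM.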

How the data were processed

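The authors deposited 3 tables, each for 1 comparison and 6 libraries, which per the file headers hold raw read counts, a log2 fold change and an adjusted p-value. Not given in the sources used here are aligner, counting tool, build, strand setting and test. Joining them on the gene identifier gave 32349 genes in 12 libraries. Of 187002 repeated counts, 0 differed, and 6372 missing values in 1484 genes were set to 0. The log2 fold changes and adjusted p-values deposited by the authors served for a count of calls alone, and 36 columns of other per-library values were not used.

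The groups are described by the titles, and the group of each library was read from its column name, which ends in C, Mut, CPoly or MutPoly. The column names carry library numbers (A72 to A83) and not the titles' replicate numbers. Counts were filtered with filterByExpr (minimum count 10, minimum total 15), scaled by TMM and fitted in edgeR 4.0.16 (R 4.3.3; quasi-likelihood F-test). The fit used 1 coefficient per group, 8 residual degrees of freedom and Benjamini-Hochberg adjustment over all 26508 genes (adjusted p under 0.05). DESeq2 1.42.0 (Wald test), a block for library sets, other filters and bounds, and leaving out each library were alternatives. The edgeR fit without a block was also run on simulated counts with 1 common spread and no library set effect. The averaged contrast and the alternatives were not run on them. Within-set ratios are on the log2(CPM + 0.5) scale.

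The members, gene lists and tests were chosen with earlier results of these data known. The named genes are nprl3, snrnp25, symbol-named genes without overlap between genotypes in both comparisons, genes called in a contrast, and the genes at the lower bound. Other genes named (snu13a, si:dkey-188h10.3, AL935210.1, si:ch211-165g14.1 and examples among those with 1 sign in all within-set ratios) were chosen after their values were seen. Names and coordinates are the deposited ones.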

Additional observations from a re-analysis of the deposited data

Results flagged for a closer look

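The change of lgals3bpb with poly I:C differed between the genotypes. It was 0.05 on the log2 scale (SE 0.28) in control and 2.67 (SE 0.30) in ifih1mut larvae, a difference of 2.63 (SE 0.40). This difference equals that of the genotype comparisons which chose the block, so it and its edgeR call are given as a description, and nothing is read from the call. In ifih1mut the level was 11.1, 11.5 and 6.31 CPM before and 60.7, 39.1 and 84.7 CPM after poly I:C in sets 1, 2 and 3, higher in each set. The edgeR call was lost when any library other than A73 or A74 was left out.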

How the results depend on the processing

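Without poly I:C the edgeR count of 0 for the genotype difference, and the count of 0 for poly I:C in control larvae, stayed at 0 under every alternative run. The genotype count with poly I:C, 3, was 7 with DESeq2, 5 with a library set block (which adds AL935210.1 and rnf213a) and 12 with DESeq2 and that block (1 to 4 leaving out 1 library). The count averaged over both comparisons, 1, was 5, 3 (adding snrnp25 and AL935210.1) and 13 under the same settings, 2 with ern1 and the globin genes kept and 0 with clone-named and unnamed genes left out (0 to 2 leaving out 1 library). The count of 4 for poly I:C in ifih1mut larvae was 1 when only the groups compared were fitted and 7 with DESeq2 and the block (1 to 5). The difference of poly I:C effects, 1, was 2 with DESeq2 with or without the block (0 to 1). The median absolute log2 fold change, 0.114, was 0.139 with no filter, 0.0965 with a CPM of at least 1 in 3 libraries, 0.0897 from a bound at 40 Mb, 0.0881 without clone names and 0.0945 at a mean log2 CPM of at least 0 (0.112 to 0.131). Pearson r between the comparisons, 0.359, was 0.219 with no filter, 0.469 at the CPM minimum and 0.470 at that mean level (-0.111 without A76 to 0.535 without A81). Over the 283 genes of the full fit alone, leaving out 1 library gave 0.202 without A83 to 0.417 without A80. Spearman's rho, 0.413, was 0.326 with no filter (0.267 to 0.432). The 5 genes without overlap in both comparisons were 3 from a bound at 48 or 52 Mb and 3 without clone names (5 to 16). The 41 genes with 1 sign in all within-set ratios were 25 without clone names. Below the called genes, the unstimulated genotype difference of lgals3bpb ran from -0.32 to 0.059 (positive without A77), and that of zgc:165582 from -0.33 to 0.054 (positive without A77, and 0.0050 without A81). The cause of these moves was not tested, except where a setting removes genes or libraries. By the titles' replicate numbers, no paired analysis was possible because the column names carry a library number and a group but no replicate number. The library set block takes its sets from the order of library numbers within a group, a grouping seen in the values, and leaves 6 residual degrees of freedom. Depth limits the low genes, and 54 members held too few counts for a test.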
